A study of Mus musculus with 20 samples.

Results

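The genes described here serve the processing of peptides for MHC class I molecules, together with *Nlrc5*, a transactivator of the class I pathway. They were taken by symbol as a list of 10 genes, namely *Nlrc5*, *Tap1*, *Tap2*, *Tapbp*, *Psmb8*, *Psmb9*, *Psmb10*, *Psme1*, *Psme2* and *Erap1*, with no filter on their measured values. Earlier results of these data were known when the list was chosen. All 10 were found among the 20188 genes of a tumor RNA-seq table, and 9 among the 50667 Ensembl genes of a table from cultured cells. *Psmb9* could not be matched to an identifier of the cell table with the tables used here and was not analysed there. The study knocked down *Rnaseh2c*, which encodes a subunit of the RNase H2 enzyme, in Mvt1 cells. Mvt1 is a metastatic mammary carcinoma line from the FVB strain, derived from a tumor of mice that carry MMTV-driven c-Myc and Vegf transgenes. Cells were transduced with a scramble control shRNA, whose genotype the labels give as wild type, or with the *Rnaseh2c* shRNA sh4, and both lines were kept under puromycin. Primary mammary tumors were taken at day 30 from FVB mice that had received scramble or sh4 cells in the mammary fat pad, and each of 3 experiments gave 1 scramble and 1 sh4 tumor. These mice are immunocompetent and carry T cells of their own. The cultured cells were 3 plates of the scramble line and 3 plates of the sh4 line. Each group thus rests on 1 transduced line and the knockdown on 1 shRNA. Plates of 1 line may be technical replicates, so p-values for the cells measure only the spread between plates. The age of the mice is not given in the labels.

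Class I molecules show peptides from inside the cell to CD8+ T cells. The proteasome cuts proteins into peptides, and under interferon γ its catalytic subunits are replaced by *Psmb8*, *Psmb9* and *Psmb10*, which form the immunoproteasome. *Psme1* and *Psme2* encode both chains of the PA28 activator that caps the proteasome. *Tap1* and *Tap2* form the transporter that carries peptides into the endoplasmic reticulum. *Tapbp* encodes tapasin, which holds empty class I molecules at the transporter, and *Erap1* trims the peptides there. *Nlrc5* acts in the nucleus with the RFX proteins at class I promoters and is itself induced by interferon γ. In breast and other carcinomas low activity of this pathway is a known way for tumor cells to escape T cells.

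Of the 10 members 5 lie on chromosome 17 within the MHC. In the mm9 annotation *Psmb9* (chr17:34318932-34324697, minus strand), *Tap1* (chr17:34324498-34334170, plus strand), *Psmb8* (chr17:34334666-34338399, plus strand) and *Tap2* (chr17:34340472-34353266, plus strand) follow each other, and *Tapbp* lies at chr17:34052844-34066235. *Tap1* and *Psmb9* are transcribed away from each other and their annotated models share 200 bases. Whether reads were counted by strand is not given in the sources used here, so reads from that overlap cannot be told apart. The gap from *Tap1* to *Psmb8* is 495 bases and that from *Psmb8* to *Tap2* is 2072 bases. *Nlrc5* (chr8:96996663-97051172) and *Psmb10* (chr8:108459628-108462292) lie on chromosome 8, *Psme1* (chr14:56196960-56200366) and *Psme2* (chr14:56206278-56209950) on chromosome 14, and *Erap1* on chromosome 13 (chr13:74777320-74829983). *Psme2* has a near-identical copy, *Psme2b*, and its values are uncertain where reads could fall on either. The mm9 genome is that of another strain than FVB, and how many reads of FVB alleles were lost was not tested.

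*Tap1* and *Psmb9* share 1 upstream region, and the segment between their RefSeq starts is shown because both genes were higher in every sh4 tumor. It spans 225 bases of GRCm38.p6 (chr17:34187331-34187555, plus strand), with *Psmb9* to the left and *Tap1* to the right, and capitals mark a CCAAT box and a TGACG motif.
Tap1 and Psmb9 shared upstream segment: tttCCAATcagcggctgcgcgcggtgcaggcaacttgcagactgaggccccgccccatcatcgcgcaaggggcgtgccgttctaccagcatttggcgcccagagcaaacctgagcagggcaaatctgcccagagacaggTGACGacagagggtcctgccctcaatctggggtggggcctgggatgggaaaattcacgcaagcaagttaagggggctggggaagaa
The 250 bases upstream of *Psmb8* (chr17:34197945-34198194, plus strand) are shown for the immunoproteasome gene with the highest value in the tumors, and capitals mark a match to TTCNNNGAA, the core of a GAS element, found in promoters that interferon γ induces.
Psmb8 upstream: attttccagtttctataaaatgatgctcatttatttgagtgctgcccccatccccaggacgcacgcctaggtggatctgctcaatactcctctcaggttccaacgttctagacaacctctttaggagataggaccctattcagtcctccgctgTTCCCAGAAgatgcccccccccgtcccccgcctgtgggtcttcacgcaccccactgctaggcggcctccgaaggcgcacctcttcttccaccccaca

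RefSeq promoter windows were found for 8 of the 10 members and searched on both strands over 250 bases upstream. *Nlrc5* and *Tap2* had no window and were not searched. Among these 8 genes the GAS core TTCNNNGAA, which reads the same on both strands, was present for *Psmb8* alone, 97 bases upstream of its start. It was present in 7.02% of 32851 windows. The core of an interferon response element, GAAANNGAA, was present for *Erap1* alone, 9 bases upstream, and in 7.13% of windows. TGACG, the core of the site for CREB and ATF proteins, was found for *Psmb9*, *Tap1* and *Psme2* and in 17.8% of windows. CCAAT was found for *Psmb9*, *Tap1* and *Tapbp* and in 33.8% of windows. *Psmb9* and *Tap1* share the same matches, 8 bases (CCAAT) and 144 bases (TGACG) upstream of *Psmb9* and 222 and 86 bases upstream of *Tap1*. Such matches describe letters and not bound sites.

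The tumor values are RPKM and the cell values FPKM, both reads scaled to the length of the gene and to the depth of the library. They summed to 399938 to 484868 per tumor and to 659082 to 864566 per cell library, while read numbers are not known. *Rnaseh2c* was at 26.9, 52.0 and 25.9 RPKM in scramble tumors 1 to 3 and at 10.2, 22.4 and 19.8 RPKM in sh4 tumors 1 to 3, so all sh4 tumors lay below the scramble tumors (log2 fold change -0.98, p = 0.1 in a two-sided exact permutation test, which cannot go lower here). In the cells it was at 5.83, 7.06 and 5.34 FPKM with scramble and at 3.19, 5.36 and 4.28 FPKM with sh4, so the groups overlapped (log2 fold change -0.48, exact two-sided permutation test, p = 0.2). Scramble tumor 2 stood apart by its fat genes, with a summed level of 5 adipocyte markers of 1707 RPKM against 24.1 to 228 RPKM in the other tumors. The cells carried the epithelial keratins *Krt8* and *Krt18*, while *Epcam* and *Cdh1*, which define epithelium, were at or below 0.0228 FPKM. Of the 5 general leukocyte markers none exceeded 0.0779 FPKM in the cells, and *Cd3d*, *Cd3e*, *Cd3g* and *Cd2* were listed at 0. Among the markers of other immune cells the highest single value in the cells was 1.64 FPKM, of *Eomes*.

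In the sh4 tumors all 10 genes had a positive log2 fold change, while none passed the test over all genes. The largest differences were in *Nlrc5*, *Tap1*, *Psmb8*, *Tap2* and *Psmb9*, and those of *Tapbp*, *Psme1*, *Psme2* and *Erap1* were at most 0.20 on the log2 scale. Values were compared as log2(RPKM + 0.5) with limma, which understates the differences of low genes. A positive fold change was found in 42.6% of the 13487 genes tested. Limma called 0 genes (0% in either direction) at an adjusted p under 0.05, against 291 higher (2.16%) and 273 lower (2.02%) at an unadjusted p under 0.05. Of the 10 members, 4 were higher and 0 lower at that unadjusted p, and the smallest adjusted p of a member was 0.995. For 3 members every sh4 tumor lay above every scramble tumor, as for 4.19% of genes tested, and for none below, as for 4.98%. The median log2 fold change of the members was 0.44, beside -0.04 over all genes tested.

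*Nlrc5* was the lowest of the members and had the largest fold change. It was at 2.74, 1.16 and 2.31 RPKM in scramble tumors 1 to 3 and at 4.64, 3.70 and 5.41 RPKM in sh4 tumors 1 to 3. No sh4 tumor overlapped with the scramble tumors, and the lowest value was that of scramble tumor 2, the one high in fat genes. The log2 fold change was 1.03 with a standard error of 0.30 (95% interval 0.33 to 1.72, limma adjusted p = 0.995, unadjusted p = 0.00947). The sh4 tumor was the higher in each of the 3 experiments, by 0.67, 1.34 and 1.07 on the log2 scale. Without scramble tumor 2 the log2 fold change was the lowest of those with 1 tumor left out, at 0.74. *Nlrc5* has the longest transcript of the members (6945 bases). Of the scramble tumors, tumor 2 had the highest transcript length index (0.31), which rests on short and long transcripts with limits of 1000 and 4000 bases. With that index as a covariate the log2 fold change of *Nlrc5* was 1.11.

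Of the transporter chains, *Tap1* was at 13.7, 10.7 and 13.0 RPKM in the scramble tumors and at 17.4, 19.1 and 29.8 RPKM in the sh4 tumors. The groups did not overlap, and sh4 tumor 3 was highest (log2 fold change 0.77, standard error 0.24, 95% interval 0.22 to 1.32, limma adjusted p = 0.995). *Tap2* was at 14.6, 20.9 and 18.9 RPKM with scramble and at 19.0, 27.4 and 40.4 RPKM with sh4. Here sh4 tumor 1 lay within the scramble range, and the interval of the log2 fold change of 0.61 included 0 (-0.05 to 1.27). Both chains were higher in sh4 in every experiment, and most in experiment 3, by 1.17 for *Tap1* and 1.08 for *Tap2* on the log2 scale.

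*Psmb8*, which encodes the subunit LMP7, was at 132, 141 and 124 RPKM in the scramble tumors and at 137, 260 and 293 RPKM in the sh4 tumors. The scramble tumors lay close together, and sh4 tumor 1 was inside their range (log2 fold change 0.72, standard error 0.29, 95% interval 0.06 to 1.39). *Psmb9*, which encodes LMP2, was at 53.9, 54.8 and 51.9 RPKM with scramble and at 56.5, 83.0 and 99.1 RPKM with sh4. All sh4 tumors lay above the scramble tumors, sh4 tumor 1 by little (log2 fold change 0.53, standard error 0.22, 95% interval 0.02 to 1.04). *Psmb10*, which encodes MECL-1, was at 70.8, 110 and 82.3 RPKM with scramble and at 68.5, 146 and 135 RPKM with sh4. Its groups overlapped, and its lowest value was that of sh4 tumor 1 (log2 fold change 0.35, 95% interval -0.38 to 1.08).

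The PA28 chains were the most abundant members, and their differences were small beside the spread between tumors. *Psme1* was at 217, 286 and 244 RPKM with scramble and at 211, 261 and 304 RPKM with sh4 (log2 fold change 0.05, 95% interval -0.42 to 0.51). *Psme2* was at 257, 426 and 265 RPKM with scramble and at 221, 412 and 412 RPKM with sh4 (log2 fold change 0.12, 95% interval -0.60 to 0.85). Both groups overlapped, and scramble tumor 2 was the highest of the scramble tumors for each chain. *Tapbp* was at 71.1, 69.8 and 82.9 RPKM with scramble and at 63.5, 103 and 95.9 RPKM with sh4 (log2 fold change 0.20, 95% interval -0.30 to 0.70). *Erap1* was at 21.3, 13.6 and 22.2 RPKM with scramble and at 25.8, 16.9 and 18.2 RPKM with sh4, with overlapping groups (log2 fold change 0.10, 95% interval -0.49 to 0.69). For these 4 genes the intervals still admit a higher or a lower level in sh4.

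**Figure D1:**
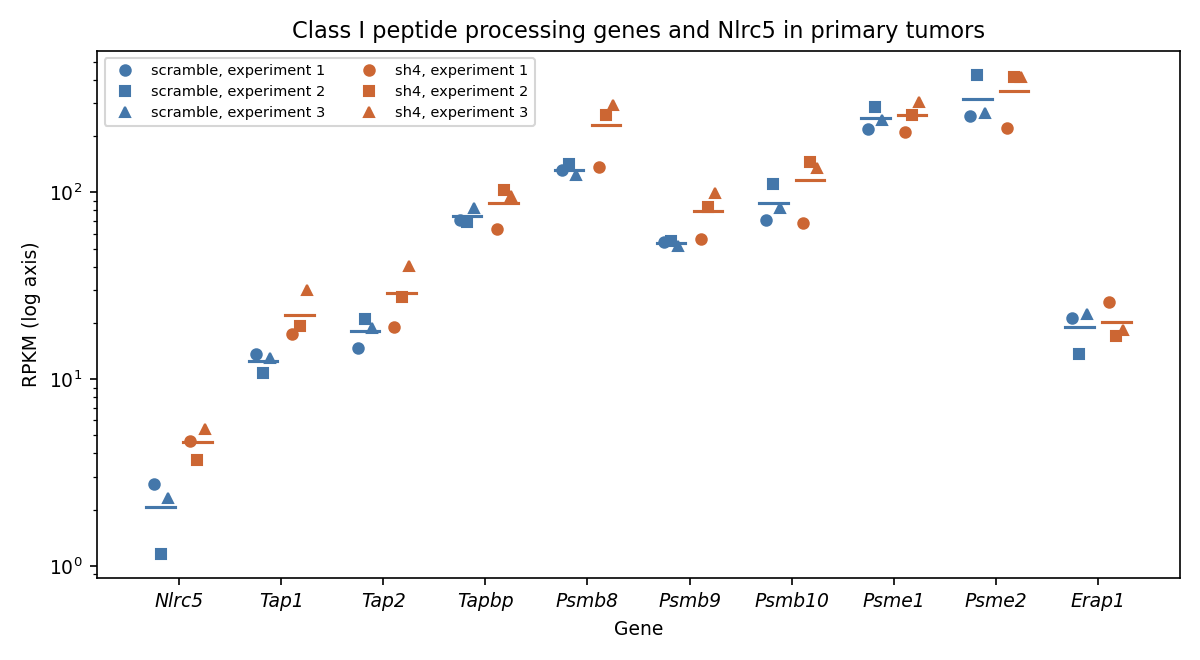
RPKM (log axis) of the 10 genes in the 3 scramble and 3 sh4 primary tumors, with a symbol for each experiment and a line at each group mean. *Nlrc5*, *Tap1* and *Psmb9* are above the scramble tumors in all sh4 tumors, and sh4 tumor 1 (circle) is lowest of the 6 tumors for 4 genes.

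The 3 sh4 tumors differed among themselves. Taken as the median deviation of the 10 genes from their own means, sh4 tumor 1 stood at -0.24 on the log2 scale, within the -0.26 to -0.21 of the scramble tumors, while sh4 tumors 2 and 3 stood at 0.33 and 0.54. Low values there were not limited to the members. Among the 14 constitutive 20S subunits, *Psma6*, *Psma7*, *Psmb1*, *Psmb4*, *Psmb5*, *Psmb6* and *Psmb7* were also lowest in sh4 tumor 1. *Psma4* and *Psmb2* were highest there. By transcript length index sh4 tumor 1 was lowest of all (-0.37) and sh4 tumor 2 highest (0.42), with sh4 tumor 3 at 0.06. The part of transcript length in these positions was not tested. Within experiments 1, 2 and 3 the sh4 tumor was the higher for 6, 8 and 9 of the 10 genes, with median differences of 0.06, 0.48 and 0.82. The experiment as a block left 0 genes called and gave 5 members, all higher, at an unadjusted p under 0.05 in limma, where 413 of all genes were higher and 498 lower. Without sh4 tumor 1 the median log2 fold change of the members was 0.73 and 7 members had an unadjusted p under 0.05, all higher, while over all genes 659 were then higher and 1377 lower at that p. Without sh4 tumor 3 it was 0.28, and without scramble tumor 2 it was 0.54. Leaving out any 1 of the other 5 tumors gave 2 members higher at that p, where 182 to 300 of all genes were higher.

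Some marker genes of immune cells differed along with these groups. The summed level of 7 T cell markers was 20.8 to 32.3 RPKM in scramble and 47.2 to 79.9 RPKM in sh4 tumors, with 7 of 7 positive and 5 of 7 without overlap. It was 47.2 RPKM in sh4 tumor 1, the sh4 tumor with the lowest median deviation of the 10 genes and the lowest T cell sum. In scramble tumor 1 that sum was 27.0 RPKM. The sum of 5 leukocyte markers was 278 to 330 RPKM in scramble and 348 to 384 RPKM in sh4 tumors, although *Ptprc*, which marks all leukocytes, overlapped (14.9, 7.61 and 14.4 against 18.6, 6.62 and 11.9 RPKM). Of these 5 markers 3 were positive (median log2 fold change 0.059), and only 1, *Cd52*, was without overlap. The 5 dendritic cell markers summed to 10.5 to 12.6 RPKM and 15.5 to 18.1 RPKM in scramble and sh4 tumors. All 5 were positive (median log2 fold change 0.14), but only 2, *Itgax* and *Ccr7*, were without overlap, while *Flt3*, *Xcr1* and *Zbtb46* overlapped. The sums of 5 macrophage markers overlapped, at 974 to 1151 RPKM and 1066 to 1408 RPKM, and 2 of the 5 lay above no difference (median log2 fold change -0.27). The 5 epithelial markers summed to 585 to 1104 RPKM in scramble and 414 to 742 RPKM in sh4 tumors. No marker of these lists was at 0 in a tumor. The sums of 3 B cell markers were 0.108 to 0.132 RPKM and 0.193 to 0.526 RPKM, with 2 of the 3 at 0 in some tumor. Those of NK cell, neutrophil, fibroblast and endothelial markers overlapped between the groups, as with fibroblasts at 166 to 373 RPKM and 254 to 680 RPKM. Immune cells also express the processing genes, and the part of these markers in the results was not tested. In bulk tissue more cells of a type and more RNA per cell cannot be told apart.

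The balance of induced and constitutive proteasome subunits was compared as a ratio of RPKM within each tumor, since each induced catalytic subunit takes the place of 1 constitutive subunit. *Psmb8* to *Psmb5* was 2.24, 1.19 and 2.21 with scramble and 2.91, 3.13 and 3.42 with sh4. The sh4 tumors, tumor 1 included, all lay above the scramble tumors (log2 difference 0.80, exact two-sided permutation test, p = 0.1, adjusted p = 0.167 over 5 comparisons). Without scramble tumor 2 the difference was 0.50. The low ratio of that tumor went with 119 RPKM of *Psmb5*, against 59.0 and 55.9 RPKM in the other scramble tumors. *Psmb9* to *Psmb6* was 0.525, 0.351 and 0.498 with scramble and 0.603, 0.535 and 0.703 with sh4, without overlap (log2 difference 0.44, exact two-sided permutation test, p = 0.1, adjusted p = 0.167). That difference was 0.25 without scramble tumor 2. *Psmb6* was highest of the 6 tumors in scramble tumor 2 (156 RPKM) and lowest in sh4 tumor 1 (93.7 RPKM). *Psmb10* to *Psmb7* was 1.23, 1.34 and 1.56 with scramble and 1.34, 1.81 and 1.89 with sh4, where the groups overlapped (log2 difference 0.28, exact two-sided permutation test, p = 0.2, adjusted p = 0.25). With 3 tumors in each group no such test can go below 0.1. With the tumors paired by experiment, an exact two-sided sign-flip test gave p = 0.25 for each of the 3 ratios, the lowest it can reach.

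The rest of the proteasome and of the loading machinery lay on both sides of no difference in the tumors. Of 14 constitutive 20S subunits 7 were above and 7 below no difference, none had an unadjusted limma p under 0.05, and the median was -0.01. Examples are *Psma3* (0.22), *Psma6* (0.25) and *Psma7* (-0.01). Of 8 other proteasome activators and assembly factors 5 were positive, from the chaperones *Psmg4* (-0.25) to *Psmg1* (0.26), with *Pomp*, which matures the new core, at 0.17. Of 14 other trimming and loading genes 6 were positive, and the chaperone *Hspa5* (-0.28), the aminopeptidase *Npepps* (-0.40) and calreticulin, *Calr* (-0.07), were negative. No gene of these 3 lists was higher or lower at an unadjusted p under 0.05.

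The class I chains that receive the peptides lay with the members. Of 10 genes measured, the heavy chains and *B2m*, 9 had a positive log2 fold change, and the median was 0.50. At an unadjusted p under 0.05, 5 were higher, beside 2.16% of all genes tested, and 0 were higher at an adjusted p. *H2-Q6* was at 40.9, 33.5 and 34.9 RPKM with scramble and at 69.9, 72.6 and 129 RPKM with sh4 (log2 fold change 1.25, limma adjusted p = 0.818). *H2-Q7* was at 33.7, 31.7 and 27.8 RPKM with scramble and at 52.1, 60.9 and 81.3 RPKM with sh4 (log2 fold change 1.03, limma adjusted p = 0.811). *B2m*, the shared light chain, ranged from 1010 to 2757 RPKM with scramble and from 1704 to 4295 RPKM with sh4, so the groups overlapped (log2 fold change 0.43). The classical heavy chains *H2-K1* (0.85) and *H2-D1* (0.52), chosen after their values were seen, lay above the scramble tumors in all 3 sh4 tumors. Heavy chain genes share sequence, and reads could be split between them.

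Regulators upstream of the members lay on both sides of no difference. Of 13 transactivators and DNA-binding partners 4 were positive, with a median of -0.06. *Irf1*, which is induced by interferon γ and drives class I genes, was at 42.6, 48.6 and 50.9 RPKM with scramble and at 49.6, 38.1 and 52.0 RPKM with sh4 (-0.03). The DNA-binding factor *Atf1* was at -0.46. *Ciita*, the class II counterpart of *Nlrc5*, was at -0.02 and was named after its value was seen. Of 11 genes of interferon input 5 were positive. *Ifng*, which encodes interferon γ, was at 0.516, 0.584 and 0.650 RPKM with scramble and at 0.829, 0.786 and 0.786 RPKM with sh4, without overlap and at low levels (log2 fold change 0.26). The signal transducer *Stat2* was at 0.37, and the receptor chain *Ifngr1* at -0.14. No gene of these lists had an unadjusted limma p under 0.05.

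The genes whose profile over the 6 tumors was most like that of *Nlrc5* were *Gbp5*, *Insl6*, *Serpina3f*, *Aplnr* and *Cxcr6*. Likeness was the root mean square distance between profiles centred on their means, on the scale of log2(RPKM + 0.5), among 10713 genes whose mean reached 1 RPKM. The distances were 0.168 for *Gbp5*, an interferon-induced GTPase, and 0.214 for *Cxcr6*, a chemokine receptor of T cells, beside 0.609 for a flat profile. The mean profile of the 10 members was closest to *Uba7*, which activates the ubiquitin-like protein ISG15, at a distance of 0.0593, then to *2700099C18Rik*, *Klhdc8b*, the class II gene *H2-Eb1* and *Acvrl1*, beside 0.294 for a flat profile. These distances rest on 6 libraries and are given as a description.

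In the cultured cells the direction was the opposite one. All 9 genes had a negative log2 fold change in sh4, as 50.4% of the 21106 genes tested did, and none passed the test over all genes. *Psmb8* had the largest difference, followed by *Tapbp*, *Tap2*, *Psme1* and *Erap1*. Limma called 110 genes higher (0.521%) and 160 lower (0.758%) at an adjusted p under 0.05. At an unadjusted p under 0.05 it had 2016 higher (9.55%) and 1970 lower (9.33%), and 5 of the 9 members were lower and 0 higher. In 5 members every sh4 plate lay below every scramble plate, as for 13.8% of genes tested, and in none above, as for 13.6%. The median of the members was -0.19, beside -0.0022 over all genes tested. With scramble plate 2, scramble plate 3, sh4 plate 2 or sh4 plate 3 left out, 2 members were lower at the unadjusted p. Over all genes 1424 to 1725 were then lower.

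*Psmb8* was at 4.04, 5.49 and 5.41 FPKM in scramble plates 1 to 3 and at 3.77, 3.76 and 3.22 FPKM in sh4 plates 1 to 3. The sh4 plates all lay below, and scramble plate 1 was the closest to them (log2 fold change -0.42, standard error 0.13, 95% interval -0.72 to -0.11, limma adjusted p = 0.159). Scramble plate 1 also had the smallest sum of FPKM. *Psmb10* was at 6.07, 7.12 and 7.82 FPKM with scramble and at 7.13, 6.03 and 6.62 FPKM with sh4, with overlap (log2 fold change -0.08, 95% interval -0.33 to 0.17).

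*Tapbp* was at 17.4, 18.6 and 19.97 FPKM with scramble and at 15.04, 15.5 and 15.3 FPKM with sh4. The sh4 plates lay close together and below all scramble plates (log2 fold change -0.28, standard error 0.06, 95% interval -0.43 to -0.13), and the limma adjusted p of 0.0921 was the smallest among the members. *Tap2* was at 3.73, 4.39 and 4.39 FPKM with scramble and at 3.65, 3.39 and 3.28 FPKM with sh4, without overlap (log2 fold change -0.24, 95% interval -0.44 to -0.05, limma adjusted p = 0.192). *Tap1* was at 1.75, 1.94 and 1.81 FPKM with scramble and at 1.68, 1.66 and 1.74 FPKM with sh4. The gap between its groups was small beside the spread within them, and the interval included 0 (log2 fold change -0.09, 95% interval -0.25 to 0.07).

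*Erap1* was at 13.6, 15.3 and 16.2 FPKM with scramble and at 12.9, 13.3 and 12.9 FPKM with sh4, without overlap (log2 fold change -0.19, 95% interval -0.36 to -0.02, limma adjusted p = 0.222). *Psme1* was at 12.7, 14.8 and 15.5 FPKM with scramble and at 12.9, 12.4 and 10.9 FPKM with sh4, where only the first plates overlapped (log2 fold change -0.24, 95% interval -0.47 to -0.01). *Psme2* was at 3.21, 3.36 and 3.53 FPKM with scramble and at 3.29, 3.12 and 2.74 FPKM with sh4, with overlap (log2 fold change -0.13, 95% interval -0.32 to 0.07). *Nlrc5* was near the limit for testing, at 0.116, 0.150 and 0.132 FPKM with scramble and at 0.104, 0.126 and 0.141 FPKM with sh4. At this level the added 0.5 sets most of the log2 value, and the fold change of -0.02 (95% interval -0.20 to 0.16) says little about it.

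**Figure D2:**
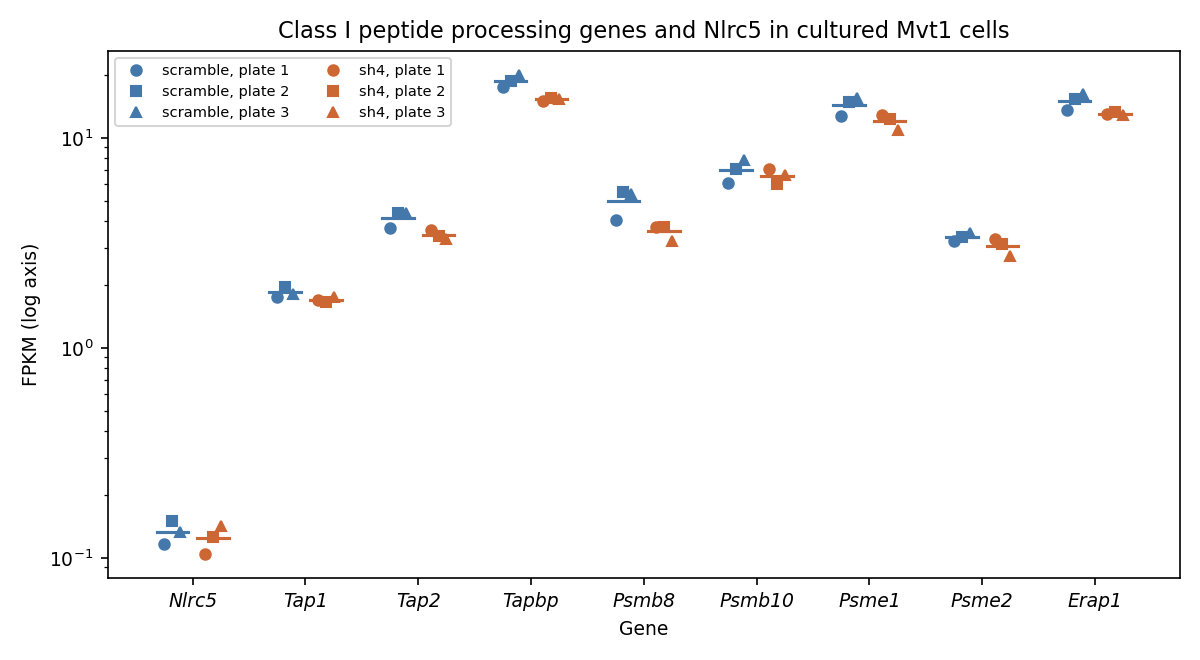
FPKM (log axis) of 9 genes in the 3 scramble and 3 sh4 plates of Mvt1 cells, with a symbol for each plate and a line at each group mean. *Tap1*, *Tap2*, *Tapbp*, *Psmb8* and *Erap1* are below the scramble plates in all sh4 plates, and *Nlrc5* is at most 0.150 FPKM in any plate.

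The ratio of *Psmb8* to *Psmb5* in the cells was 0.0903, 0.0922 and 0.0931 with scramble and 0.0596, 0.0683 and 0.0593 with sh4. It varied little between scramble plates, and every sh4 plate was lower (log2 difference -0.56, exact two-sided permutation test, p = 0.1, adjusted p = 0.167 over 5 comparisons). *Psmb5* itself was at 44.8 to 59.6 FPKM with scramble and at 54.3 to 63.3 FPKM with sh4. *Psmb10* to *Psmb7* was 3.56, 3.99 and 4.66 with scramble and 4.44, 3.71 and 4.31 with sh4 (log2 difference 0.03, exact two-sided permutation test, p = 0.9, adjusted p = 0.9). *Psmb7* had a mean of 1.66 FPKM in the cells, while the 14 constitutive 20S subunits reached 60.2 FPKM. The cell file also holds 239874 assembled loci, and how reads were shared between genes and these loci is not given in the sources used here, so the level of this ratio is uncertain.

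**Figure D3:**
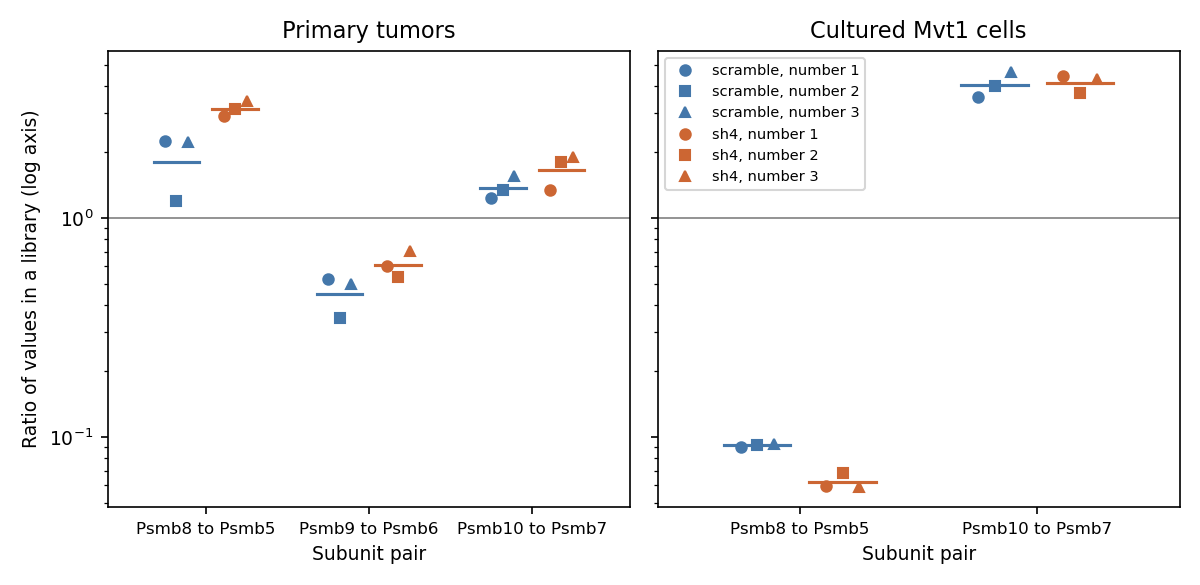
Ratio (log axis) of an induced proteasome subunit to its constitutive counterpart in each library, from RPKM in tumors (left) and FPKM in cells (right), with symbols for the experiment or plate number and a line at each mean of log2 ratios. *Psmb8* to *Psmb5* is higher in all sh4 tumors (2.91 to 3.42) than in scramble tumors (1.19 to 2.24), and lower in all sh4 plates (0.0593 to 0.0683) than in scramble plates (0.0903 to 0.0931).

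Most constitutive proteasome genes lay above no difference in the sh4 cells. Of their 14 subunits 11 lay above no difference, and the median was 0.13. At an unadjusted p under 0.05, 2 of the 14 were higher, beside 9.55% of all genes tested. *Psmb3* (0.21) and *Psma4* (0.19) were the 2 at that p, and *Psmb1*, the most abundant, was at 0.14. Of 8 activators and assembly factors 6 were positive, and *Psme3*, which encodes the nuclear activator PA28γ, was at 13.3, 15.5 and 15.4 FPKM with scramble and at 17.7, 17.1 and 17.2 FPKM with sh4 (log2 fold change 0.23, limma adjusted p = 0.162). The assembly chaperone *Psmg2* was at 0.22. Of 14 other trimming and loading genes 10 were positive, with the peptidase *Tpp2* at 0.15 and *Hspa5* at 0.20. At an unadjusted p under 0.05, 1 of these 14 was higher, again beside 9.55% of all genes tested.

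Class I chains again lay with the members. Of 11 measured, 9 had a negative log2 fold change, and the median was -0.20. At an unadjusted p under 0.05, 5 were lower, beside 9.33% of all genes tested, and 0 were lower at an adjusted p. The nonclassical heavy chain *H2-T23* was at 4.06, 4.54 and 4.41 FPKM with scramble and at 3.59, 3.45 and 3.59 FPKM with sh4 (log2 fold change -0.26, limma adjusted p = 0.105). *H2-M3* was at 13.1, 15.9 and 15.8 FPKM with scramble and at 12.9, 11.9 and 11.6 FPKM with sh4 (log2 fold change -0.29, limma adjusted p = 0.168). *B2m* overlapped, with 217 to 257 FPKM with scramble and 211 to 239 FPKM with sh4 (log2 fold change -0.10). *H2-K1* and *H2-D1*, chosen after their values were seen, were at -0.22 and -0.23.

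Of 12 transactivators and partners tested in the cells 6 were positive. *Irf8* was at 1.10, 1.47 and 1.34 FPKM with scramble and at 1.78, 1.67 and 1.78 FPKM with sh4 (log2 fold change 0.32, limma adjusted p = 0.154). *Rfxank*, a subunit of the RFX complex with which *Nlrc5* acts, was at 2.77, 2.72 and 2.57 FPKM with scramble and at 2.47, 2.29 and 2.12 FPKM with sh4 (-0.19), and *Irf1* was at -0.12. *Ciita* and *Ifng* were below the mean of 0.1 FPKM needed for testing. Of 10 genes of interferon input 8 were negative. At an unadjusted p under 0.05, 4 were lower and 2 higher, beside 9.33% and 9.55% of all genes tested. *Irf9*, the DNA-binding part of the type I interferon complex, was at 2.26, 2.38 and 2.26 FPKM with scramble and at 3.12, 2.78 and 3.05 FPKM with sh4 (log2 fold change 0.31, limma adjusted p = 0.0843). The kinase *Jak1*, which both interferon receptors use, was at 10.3, 10.4 and 9.88 FPKM with scramble and at 8.74, 8.87 and 8.60 FPKM with sh4 (log2 fold change -0.21, limma adjusted p = 0.0955). The receptor chain *Ifnar1* was at -0.13.

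**Figure D4:**
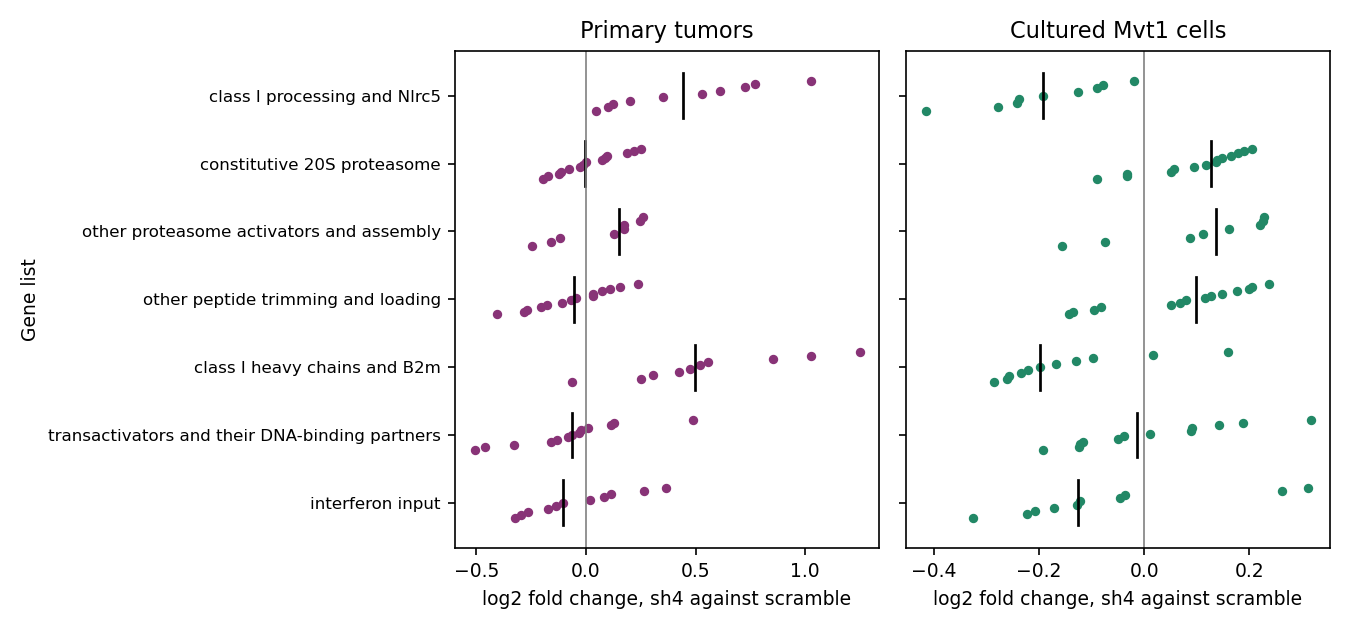
Log2 fold change (sh4 against scramble) of each tested gene of 7 lists in tumors (left) and cells (right), with a point for each gene and a black line at each list median. The medians of the class I processing genes are 0.44 and -0.19, those of class I chains 0.50 and -0.20, and those of the constitutive 20S proteasome -0.01 and 0.13.

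Set side by side, all 9 genes measured in both were above no difference in the tumors and under it in the cells. The tumor and cell tables were made and normalized separately, from mRNA of mixed tissue and total RNA of 1 line, and the difference between the comparisons was not tested. The groups in both share the scramble and sh4 lines but no library. For *Psmb8* the intervals were 0.06 to 1.39 in the tumors and -0.72 to -0.11 in the cells. For *Tapbp*, *Tap2*, *Psme1* and *Erap1* the interval in the cells lay below 0, and that in the tumors included 0. For *Nlrc5* and *Tap1* the interval in the tumors lay above 0, and that in the cells included 0. For *Psmb10* and *Psme2* both intervals included 0.

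**Figure D5:**
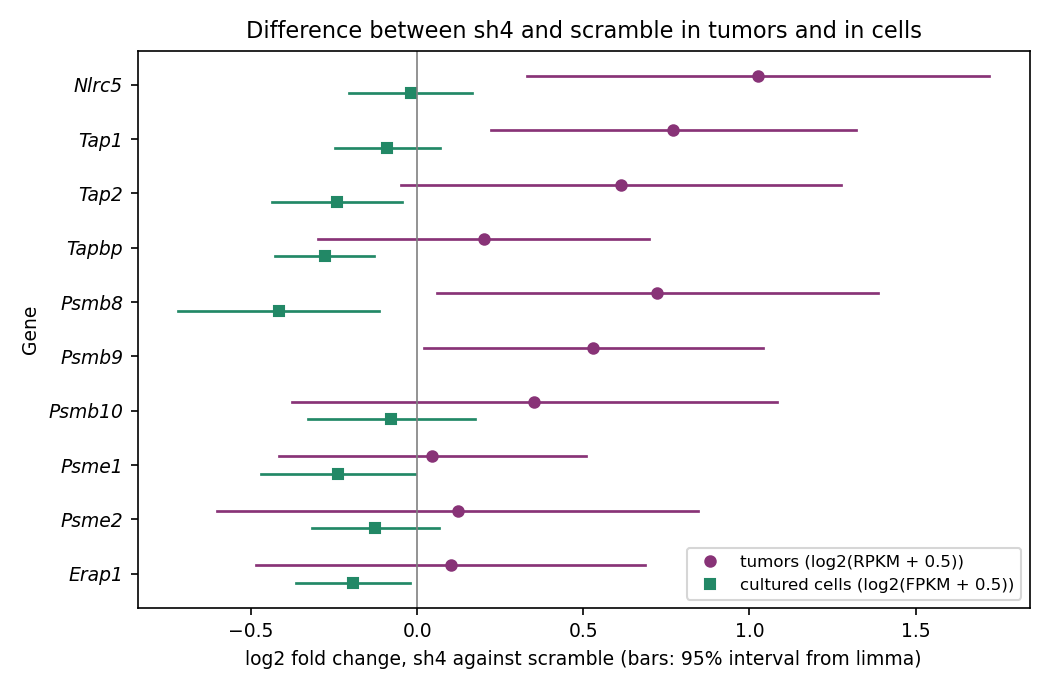
Log2 fold change of sh4 against scramble with its 95% interval from limma, on log2(RPKM + 0.5) in tumors (circles) and log2(FPKM + 0.5) in cells (squares). The tumor values run from 0.05 (*Psme1*) to 1.03 (*Nlrc5*) and the cell values from -0.42 (*Psmb8*) to -0.02 (*Nlrc5*), and *Psmb9* has a tumor value alone.

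The order of levels also differed between the tables. In the tumors the mean over 6 libraries went from *Psme2* (332 RPKM), *Psme1* (254 RPKM), *Psmb8* (181 RPKM) and *Psmb10* (102 RPKM) through *Tapbp* (81.0 RPKM) and *Psmb9* (66.5 RPKM) to *Tap2* (23.5 RPKM), *Erap1* (19.7 RPKM), *Tap1* (17.3 RPKM) and *Nlrc5* (3.33 RPKM). In the cells *Tapbp* (17.0 FPKM), *Erap1* (14.0 FPKM) and *Psme1* (13.2 FPKM) came first, and *Tap1* (1.76 FPKM) and *Nlrc5* (0.128 FPKM) last. Neighbours such as *Erap1* and *Tap1* in the tumors overlapped in their ranges. Among 18993 genes present in both tables, *Psmb8* ranked at percentile 98.5 in the tumors and 70.5 in the cells, and *Psme2* at 99.1 and 65.5. *Tap1* ranked at 85.6 and 57.3, and *Nlrc5* at 59.2 and 41.5. *Erap1* (87.1 and 89.4) and *Tapbp* (96.7 and 91.6) ranked alike in both. A lower rank in the cells was not limited to the members. Of the constitutive counterparts, *Psmb7* ranked at 96.0 and 56.7, *Psmb6* at 97.8 and 91.7, and *Psmb5* at 96.5 and 98.2. No test was made between the tables, and the share of host cells in the tumor levels was not tested.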

How the data were processed

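RNA of 6 primary tumors and 6 plates of Mvt1 cells was analysed in 2 tables. Another 8 exome libraries of metastases were not used here. The authors deposited RPKM for the tumors, computed from mRNA libraries whose reads were trimmed by Trimmomatic and aligned by Tophat to mm9 with Ensembl transcripts. For the cells the authors deposited FPKM of Ensembl genes and of loci assembled from reads. The paper's methods name Tophat and GENCODE, the submitters' processing notes STAR 2.7 and TopHat2 2.1.0, and the program that gave FPKM is not given in the sources used here. Read numbers are unknown, so precision was judged from the spread between libraries, with 3 in each group.

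Symbols and coordinates came from the GENCODE annotation of mm9, promoter windows from RefSeq (GRCm38.p6). A gene was tested where its mean over the 6 libraries of a table reached 0.1, on the scale of log2(value + 0.5). Groups were compared by limma (version 3.58.1, under R 4.3.3), with the prior variance following the mean and p-values adjusted after Benjamini and Hochberg over every gene tested. This procedure was tested on simulated data. Ratios of subunits were compared by exact permutation in scipy 1.17.1 and adjusted over the 5 ratios that could be formed, as *Psmb9* was not analysed in the cells. None of the 6 housekeeping genes checked was at 0 in any library. The members, gene lists and tests were chosen with earlier results of these data known. Named genes are all members, their constitutive counterparts, the 2 genes of each list with the smallest p and its most abundant gene, and the 5 most alike in profile, except 1 gene that is counted within its list but not reported here by itself. Tumor numbers pair the groups by experiment, as the labels state. After removal of group means the correlation of same-numbered tumors was 0.14, 0.33 and -0.12. That of differently numbered scramble and sh4 tumors ran from -0.30 to 0.29. Alternatives were other pseudocounts, filters and scalings, the number as a block, no variance trend, a transcript length covariate and leaving out each library.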

Additional observations from a re-analysis of the deposited data

Results flagged for a closer look

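*Tap1* lay on opposite sides in the tumors and in the cells. Every sh4 tumor lay above every scramble tumor (log2 fold change 0.77), while every sh4 plate of cells lay below every scramble plate (log2 fold change -0.090). The difference between the comparisons was not tested, as the tables were normalized separately, and neither fold change passed limma over all genes (adjusted p = 0.995 in tumors and 0.497 in cells).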

How the results depend on the processing

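Of 150 alternative values for the 10 members in tumors, 141 kept their direction and their side of the threshold and 9 reversed, all of them in *Psme1*, *Psme2* or *Erap1*. *Psme1* was at -0.00097 with the transcript length covariate, -0.049 without scramble tumor 1 and -0.078 without sh4 tumor 3 (range -0.078 to 0.18). *Psme2* was at -0.0012 with that covariate, -0.0059 when scramble tumor 1 was left out, and -0.028 when either sh4 tumor 2 or sh4 tumor 3 was (range -0.028 to 0.42). *Erap1* was at -0.12 without scramble tumor 2 and -0.080 without sh4 tumor 1 (range -0.12 to 0.23). With 1 tumor left out, *Nlrc5* ranged from 0.74 to 1.22, *Tap1* from 0.54 to 0.92, *Psmb8* from 0.51 to 1.06, and *Psmb9* from 0.35 to 0.76. The range was wider for *Tap2* (0.34 without sh4 tumor 3, up to 0.88), *Psmb10* (0.15 without sh4 tumor 2 to 0.70 without sh4 tumor 1) and *Tapbp* (0.069 without sh4 tumor 2 to 0.41 without sh4 tumor 1). The tumor ratio of *Psmb8* to *Psmb5* ranged from 0.50 to 0.96, that of *Psmb9* to *Psmb6* from 0.25 to 0.55, and that of *Psmb10* to *Psmb7* from 0.19 without sh4 tumor 3 to 0.44 without sh4 tumor 1. The number of genes called in tumors was 0 under every alternative, the replicate block by experiment included. Members higher at an unadjusted p under 0.05 numbered 2 with median-ratio scaling and 3 without the variance trend, against 4 as reported. Over all genes 412, 292 and 291 were higher at that p in these settings.

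Of 134 alternative values for the 9 members in cells, 124 kept direction and side, 7 passed the threshold and 3 reversed. With quantile normalization *Tapbp* (-0.34), *Psme1* (-0.28) and *Erap1* (-0.24) were called lower. With median-ratio scaling *Tap2* (-0.26), *Tapbp* (-0.30) and *Erap1* (-0.21) were called, and with the length covariate *Psmb8* (-0.70). *Nlrc5* turned to 0.0028 with quantile normalization and to 0.0031 without sh4 plate 1 (range -0.040 to 0.0031), and *Psmb10* to 0.00015 without scramble plate 3 (range -0.17 to 0.00015). The ratio of *Psmb10* to *Psmb7* in cells was -0.058 without scramble plate 1 and -0.017 without sh4 plate 1 (range -0.058 to 0.14). Genes called higher in cells numbered 32 with no filter, 174 with a mean of at least 1, 545 with quantile normalization, 592 with median-ratio scaling, 53 without the trend, 20 with the length covariate and 1 to 80 with 1 plate left out. Those called lower numbered 45 with no filter, 678 with quantile normalization, 638 with median-ratio scaling, 63 with the length covariate and 1 to 162 with 1 plate left out. The cause of these shifts was not tested. With the plate number as a replicate block 0 genes were called higher and 0 lower in cells. At an unadjusted p under 0.05, 2 members were then lower, where 1375 of all genes were higher and 1438 lower. Same-numbered plates correlated at -0.06, -0.08 and -0.07, and differently numbered scramble and sh4 plates at 0.0018 to 0.071. The labels give the plates a number alone, and with so few plates these correlations cannot exclude a shared preparation. The unknown read numbers limit what can be said of *Nlrc5* in cells.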
